A study of Homo sapiens with 49 samples.

Results

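The genes described are those of cholesterol and fatty acid synthesis, and the question is how their transcripts behaved in a human endometrial cell line given a synthetic estrogen. A list of 34 genes was followed, 20 in a sterol branch and 14 in a fatty acid branch, each read from 1 probe set, the one with the highest mean over all arrays. Of these, 32 had a probe set assigned to 1 gene symbol, out of 19774 such genes on the array, and FDFT1 and ACSL3 were not analysed here. A probe set was tested if its log2 level exceeded 4 on at least 6 arrays, which 30 members (18 sterol, 12 fatty acid) and 11075 genes in all did. MVD, which makes isopentenyl diphosphate, had a mean log2 level of 3.50 and passed the floor on 2 arrays. THRSP, a nuclear protein of fat-synthesizing cells, had a mean of 2.40 and passed it on 0 arrays.

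Ishikawa cells, an established line from a human endometrial adenocarcinoma, were grown in phenol red-free medium and moved to serum stripped with charcoal before and during exposure. Every group carried 0.1% ethanol, and exposure lasted 72 h with part of the medium renewed each day. The 8 groups (49 arrays) were ethanol alone as vehicle (6 arrays) and ethinyl estradiol (EE, the estrogen of most combined oral contraceptives) at 0.1 pM (6 arrays), 0.3 pM (7 arrays), and 1, 3, 10, 100 and 1000 pM (6 arrays each). The labels give the concentrations as powers of 10 without a unit, and they were read as molar. The line is a single tumour line, and no label states that replicates came from separate cultures. The p-values thus reflect the spread among these samples, part or all of which may be technical.

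Cells make cholesterol from acetyl-CoA through mevalonate, farnesyl diphosphate, squalene and lanosterol. Transcription of this route is driven mainly by SREBP-2, the product of SREBF2, and that of fatty acid synthesis mainly by SREBP-1c, a product of SREBF1. When membrane sterol is plentiful, INSIG1 helps to hold the SREBPs and their escort SCAP in the endoplasmic reticulum, and when sterol is scarce the released factors enter the nucleus and raise nearly all genes of the route together. SREBPs bind DNA beside NF-Y, a factor that recognizes CCAAT boxes. In the uterus estrogen drives growth of the epithelium, and dividing cells need new membrane lipid.

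The stretches of promoter ahead of 7 members are shown because the results turn on these genes, with matches of sequences that SREBP control is known for marked where present. They come from the RefSeq annotation of GRCh38.p14, each ends at the base before an annotated transcript start, and capitals mark every match of the letters TCACNCCAC (a form of the sterol regulatory element) and CCAAT. Both motifs, and the palindromic consensus of the estrogen response element, were searched on both strands, so that ATTGG is CCAAT read from the other strand.
SREBF2, chr22:41832905-41833104, plus strand: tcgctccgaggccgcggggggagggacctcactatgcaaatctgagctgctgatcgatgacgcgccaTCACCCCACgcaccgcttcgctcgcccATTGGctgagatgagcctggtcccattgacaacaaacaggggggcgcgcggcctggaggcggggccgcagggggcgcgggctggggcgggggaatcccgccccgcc
HMGCS1, chr5:43313413-43313612, minus strand: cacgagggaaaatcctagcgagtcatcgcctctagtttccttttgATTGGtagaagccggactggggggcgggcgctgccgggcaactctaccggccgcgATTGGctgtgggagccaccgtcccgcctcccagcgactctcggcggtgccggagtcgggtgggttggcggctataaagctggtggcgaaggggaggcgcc
MSMO1, chr4:165327469-165327668, plus strand: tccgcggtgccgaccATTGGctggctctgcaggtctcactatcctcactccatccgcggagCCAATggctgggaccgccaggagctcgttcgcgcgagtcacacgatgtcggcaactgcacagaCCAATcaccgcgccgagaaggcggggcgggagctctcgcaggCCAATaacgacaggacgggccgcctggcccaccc
INSIG1, chr7:155297678-155297877, plus strand: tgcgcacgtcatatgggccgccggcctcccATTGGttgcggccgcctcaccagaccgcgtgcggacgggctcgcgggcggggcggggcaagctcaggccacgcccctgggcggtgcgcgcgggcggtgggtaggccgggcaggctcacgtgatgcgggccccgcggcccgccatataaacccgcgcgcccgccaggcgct
SCD, chr10:100346993-100347232, plus strand: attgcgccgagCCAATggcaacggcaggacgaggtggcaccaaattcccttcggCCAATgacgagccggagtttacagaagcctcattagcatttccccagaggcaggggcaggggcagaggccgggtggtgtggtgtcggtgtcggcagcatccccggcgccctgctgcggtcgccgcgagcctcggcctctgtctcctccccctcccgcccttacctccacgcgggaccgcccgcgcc
TM7SF2, chr11:65111672-65111871, plus strand: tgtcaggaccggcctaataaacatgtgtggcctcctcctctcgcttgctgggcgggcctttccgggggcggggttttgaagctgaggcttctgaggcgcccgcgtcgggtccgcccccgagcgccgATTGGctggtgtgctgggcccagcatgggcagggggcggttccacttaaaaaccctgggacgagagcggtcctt
CYP51A1, chr7:92134478-92134677, minus strand: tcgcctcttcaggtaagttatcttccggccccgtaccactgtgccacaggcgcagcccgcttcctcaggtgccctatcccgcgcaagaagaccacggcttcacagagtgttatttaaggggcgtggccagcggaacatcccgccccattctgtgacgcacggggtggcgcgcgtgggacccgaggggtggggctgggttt

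Over the 250 bases before the start, TCACNCCAC was found in 2 member genes, SREBF2 (133 bases before the start) and ACSL1. It was found in 0.883% of the 35116 promoters of the table, and in 1 of 22 sterol and 1 of 22 fatty acid promoters, which belong to 17 and 13 genes. CCAAT, a motif added after the sequences had been seen, was present in 18 of the 22 sterol promoters (81.8%) and in 10 of the 22 fatty acid promoters (45.5%), against 32% of all promoters. MSMO1 had 4 copies within the 200 bases shown, at 185, 139, 76 and 34 bases, and CYP51A1 had none in the 250 bases searched. The table held no promoter of FDFT1, SQLE, ACAT2 and FASN, so that these genes were not searched. The consensus estrogen response element was found in 0.0399% of all promoters and in 0 of those of the members, which says little at so low a share. These are matches of letters, and occupancy by a factor was not measured.

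The arrays were alike in distribution, with median log2 levels of 2.95 to 3.05. The 5 epithelial markers (EPCAM, KRT8, KRT18, KRT19 and CDH1) lay at 9.30 to 11.88 and the 3 of Mullerian epithelium (PAX8, ESR1 and EMX2) at 8.09 to 9.79, while the 12 stromal, immune, endothelial and adipocyte markers lay at 1.48 to 3.30, under the floor on all arrays. Of 3 hepatocyte markers ALB and APOA1 lay under the floor and CYP3A4 at 3.94 to 4.77. EE acted in these cells: PGR, the progesterone receptor and a direct estrogen target, lay at 9.15 ± 0.19 at 1000 pM against 4.02 ± 0.57 in vehicle (SD, n = 6 each; adjusted p = 1.272e-24, limma), the vehicle level being at the floor. In 4 arrays, called high-actin here (replicate 5 of vehicle, 2 of 0.3 pM, 6 of 3 pM and 6 of 1000 pM), the beta-actin 3′ probe set exceeded the 5′ one by 2.67 to 4.62, against 0.80 to 2.06 in the other 45 (this difference is a common check of RNA integrity). Without these arrays the change turned sign in 8 members at 1000 pM and in 7 at 100 pM, against 18.6% and 18.7% of all genes, and in 0 at 100 and 1000 pM against 0.1 and 0.3 pM. None of these members passed in either fit.

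Against vehicle, few lipid synthesis genes passed the test. Of the 30 tested members, 0 passed an adjusted p of 0.05 (limma, Benjamini-Hochberg over the 11075 genes) at 0.1, 0.3, 1, 3 and 10 pM. The share of all genes that passed was 0% at 0.1, 0.3 and 1 pM, 0.153% at 3 pM and 0.858% at 10 pM, so that few calls could be had there. At 100 pM 1 member passed, TM7SF2, which fell, where 10.1% of all genes passed and 6.27% passed as lower. At 1000 pM 0 members passed, against 7.21% of all genes, and 4 members (TM7SF2, CYP51A1, ELOVL6 and ME1) had an unadjusted p under 0.05. In the F test over the 8 groups 0 members passed, against 6.99% of all genes, and 3 (TM7SF2, CYP51A1 and SREBF2) had an unadjusted p under 0.05. The lowest adjusted p in that test was 0.09913, for TM7SF2.

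A comparison without the vehicle arrays set 100 and 1000 pM (12 arrays) against 0.1 and 0.3 pM (13 arrays). There 2 members passed, CYP51A1, which rose, and TM7SF2, which fell, against 13% of all genes (5.05% higher and 7.91% lower). The 95% intervals were narrow: in that comparison those of 30 of 30 members lay inside a 1.5-fold change either way (96.3% of all genes), and at 1000 pM against vehicle those of 28 of 30 (89.7% of all genes), SCD and INSIG1 being the exceptions. A change of that size was therefore outside the interval for nearly all members in these comparisons. At 100 pM against vehicle fewer intervals lay inside a 1.5-fold change, those of 23 of 30 members (85.1% of all genes). In the fatty acid branch these were 8 of 12.

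**Figure D1:**
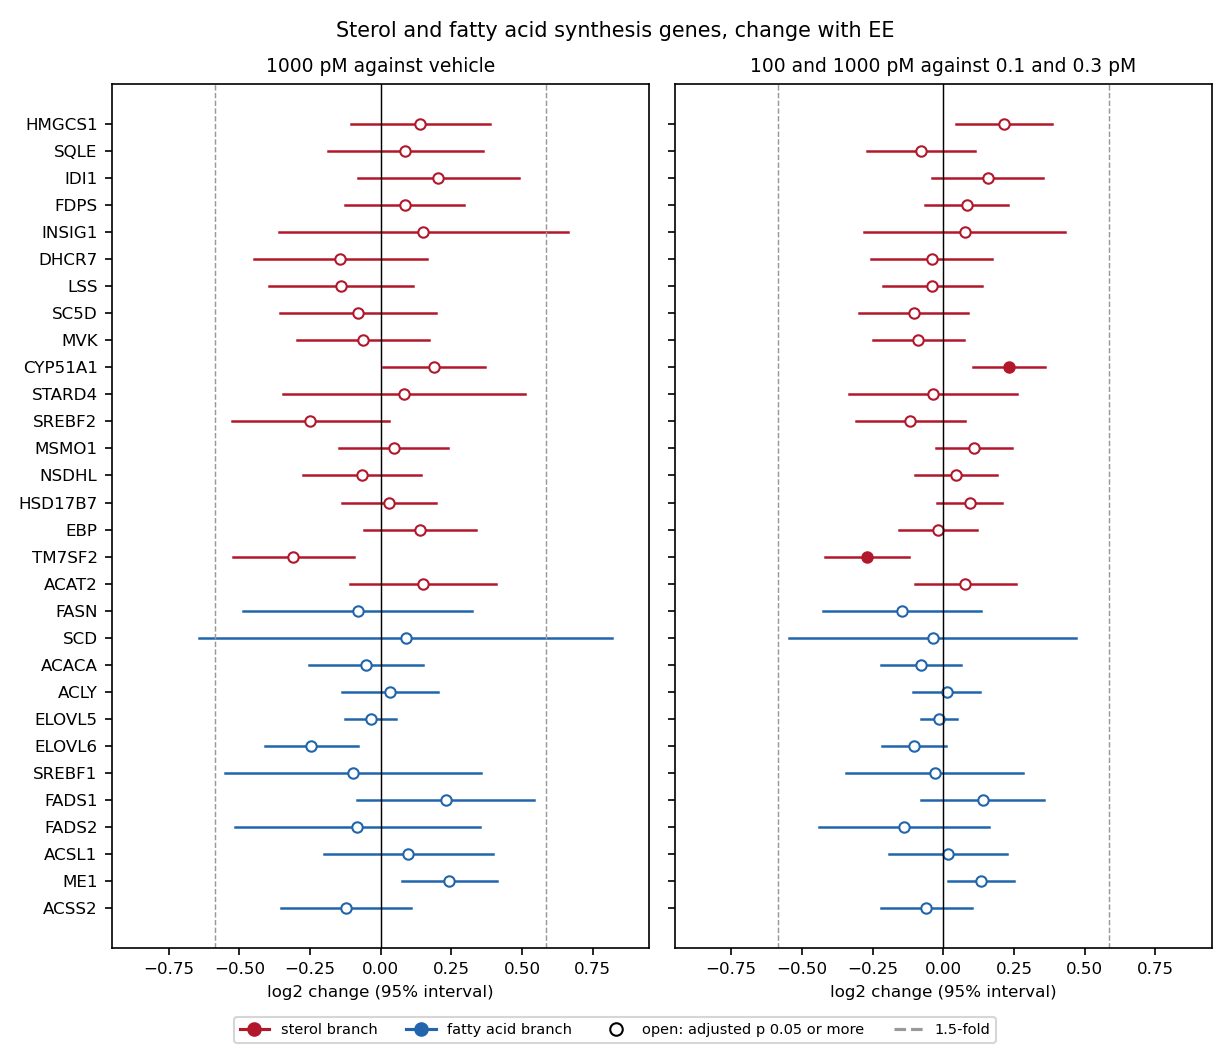
Log2 change with its 95% interval for the 30 tested members, sterol branch above and fatty acid branch below, at 1000 pM against vehicle (left) and at 100 and 1000 pM against 0.1 and 0.3 pM (right). Filled points passed an adjusted p of 0.05: 0 on the left, and CYP51A1 and TM7SF2 on the right; the dashed lines mark a 1.5-fold change.

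The branches, taken apart, were centred near 0. The median log2 change of the 18 sterol members was 0.10 at 100 pM and 0.06 at 1000 pM, and that of the 12 fatty acid members was −0.05 and −0.04, beside −0.02 and −0.01 over all genes. At 1000 pM 11 sterol members lay above vehicle and 7 below, and 5 fatty acid members above and 7 below. Without the 4 high-actin arrays the medians at 1000 pM were 0.09 for the sterol branch (13 above, 5 below) and 0.04 for the fatty acid branch (9 above, 3 below). Against 0.1 and 0.3 pM the medians were 0.01 and −0.03, beside −0.02 over all genes. Of the 17 members with several tested probe sets, all probe sets had the same sign in 8 at 100 pM, in 12 at 1000 pM and in 9 at high against low concentrations.

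In the sterol branch, TM7SF2 and CYP51A1 act in consecutive steps on the lanosterol nucleus: CYP51A1 removes a methyl group from lanosterol, and TM7SF2 reduces the double bond that this leaves. At 100 and 1000 pM against 0.1 and 0.3 pM their transcripts moved in opposite directions. TM7SF2 had log2 levels (lowest, median, highest array) of 6.49, 6.72 and 6.96 in vehicle, 6.43, 6.68 and 6.78 at 0.1 pM, 6.45, 6.71 and 6.94 at 0.3 pM, and 6.30, 6.65 and 6.93 at 1 pM. At the higher concentrations it had 6.40, 6.53 and 6.80 at 3 pM, 6.24, 6.55 and 6.63 at 10 pM, 6.07, 6.35 and 6.64 at 100 pM, and 6.18, 6.41 and 6.80 at 1000 pM. The arrays at 10 pM and above lay lower as a set, with overlap between all groups.

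TM7SF2 at 100 pM fell by 0.39 on the log2 scale against vehicle (6.35 ± 0.19 against 6.74 ± 0.18, SD, n = 6 each; SE 0.11, adjusted p = 0.01303, limma), with 6 of 6 arrays below the vehicle mean. That is a 1.31-fold lower level. The call is lost without replicate 4 of every group (adjusted p = 0.08738) or replicate 5 (0.08074), and with only these 2 groups in the fit (0.07937). At 1000 pM TM7SF2 was at −0.31 ± 0.11 (SE) against vehicle, with an adjusted p of 0.06897. At 100 and 1000 pM against 0.1 and 0.3 pM it fell by 0.27 (6.39 ± 0.19, n = 12, against 6.67 ± 0.16, n = 13; SE 0.07, adjusted p = 0.008336), with 11 of 12 arrays below the mean of the low concentrations. This last call held in each of the 56 fits that left out 1 array or 1 replicate number, with adjusted p-values of 0.002014 to 0.03211. TM7SF2 had 1 probe set, and its level in the 4 high-actin arrays differed from the mean of the others of the group by −0.06 to 0.26. A level is relative to all RNA on the array, so that a change in every cell and a change in the share of cells with the transcript cannot be told apart.

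CYP51A1 had log2 levels of 9.35, 9.42 and 9.60 in vehicle, 9.24, 9.41 and 9.47 at 0.1 pM, 9.25, 9.38 and 9.49 at 0.3 pM, and 9.39, 9.56 and 9.71 at 1 pM. It had 9.22, 9.38 and 9.58 at 3 pM, 9.28, 9.44 and 9.90 at 10 pM, 9.29, 9.64 and 9.96 at 100 pM, and 9.36, 9.61 and 9.90 at 1000 pM. The highest arrays at 10 pM and above exceeded all vehicle arrays, while the lowest lay near the lowest vehicle array. At 100 and 1000 pM against 0.1 and 0.3 pM it rose by 0.23 (9.62 ± 0.21, n = 12, against 9.39 ± 0.08, n = 13; SE 0.06, adjusted p = 0.007172), a 1.17-fold higher level, with 9 of 12 arrays above. The CYP51A1 call did not hold throughout: the second probe set of the gene was at 0.07 ± 0.15 (SE), and with the probe sets averaged the adjusted p was 0.2783. Without replicate 3 of every group it was 0.05556. Against vehicle the change at 1000 pM was 0.19 ± 0.09, with an adjusted p of 0.2476. The CYP51A1 mean at 1 pM, 9.57, was already close to those at 100 and 1000 pM, 9.62 and 9.63, while that at 3 pM was 9.41.

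**Figure D2:**
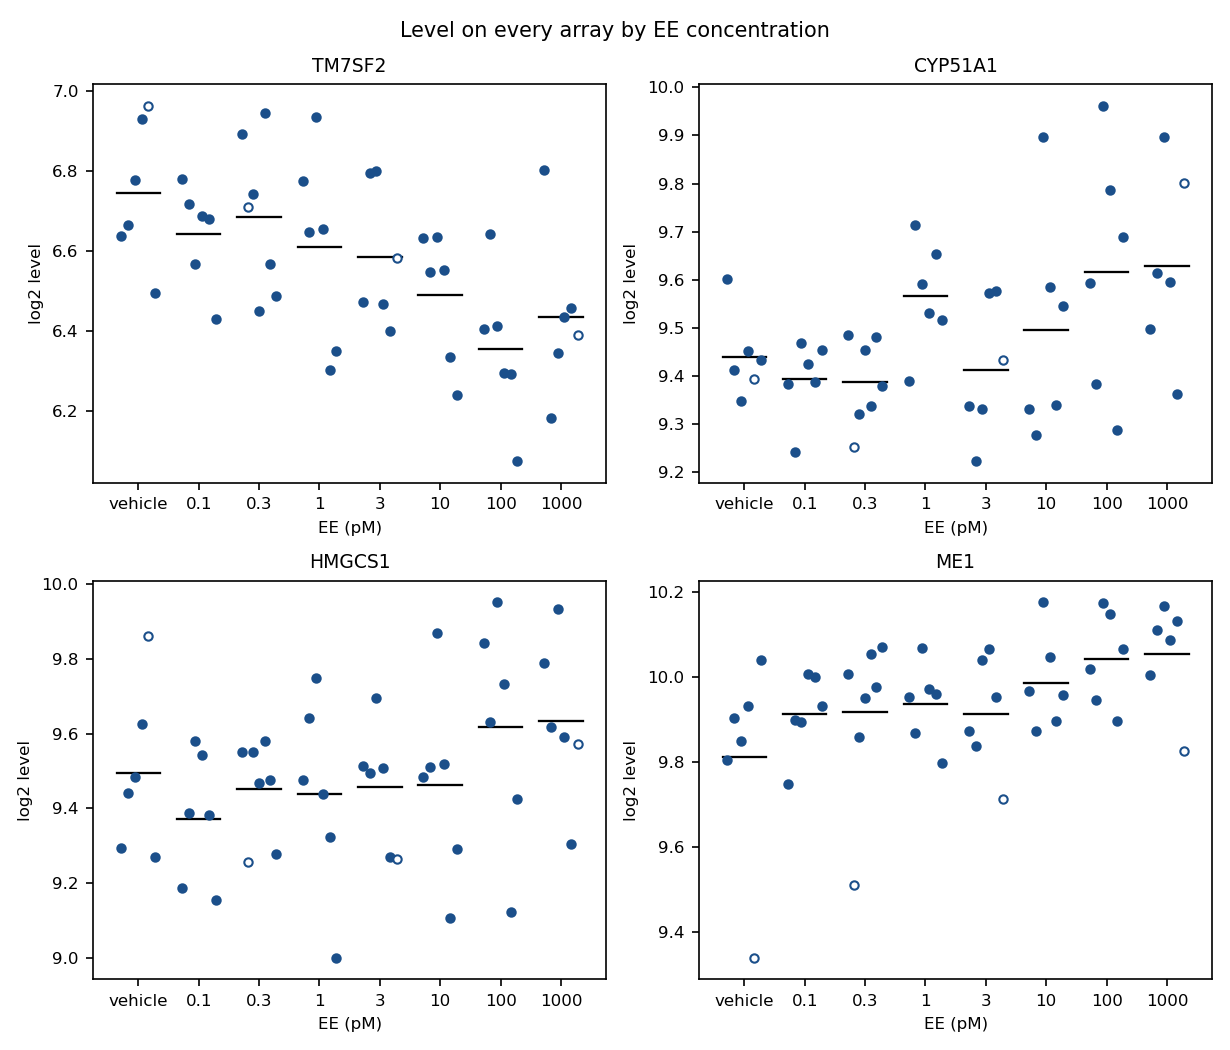
Log2 level of TM7SF2, CYP51A1, HMGCS1 and ME1 on each of the 49 arrays, from vehicle to 1000 pM EE, with bars at the group means; open points are the 4 high-actin arrays. TM7SF2 means run between 6.35 and 6.74 and CYP51A1 means between 9.39 and 9.63, and for ME1 the lowest array of vehicle, 0.3 pM, 3 pM and 1000 pM is an open point.

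The enzymes at the head of the sterol route did not pass. HMGCS1 makes HMG-CoA, the substrate of the committed step, and had 9.31, 9.60 and 9.93 at 1000 pM against 9.27, 9.46 and 9.86 in vehicle, a change of 0.14 ± 0.12 (SE; adjusted p = 0.5783, limma). At 100 and 1000 pM against 0.1 and 0.3 pM HMGCS1 was at 0.21 ± 0.08 with an adjusted p of 0.08973. Its second probe set was at 0.57 ± 0.36 at 1000 pM. SQLE, the squalene epoxidase and a rate-limiting enzyme of the late route, had 8.52, 9.07 and 9.18 at 1000 pM against 7.92, 9.03 and 9.16 in vehicle (0.09 ± 0.14; adjusted p = 0.7716). Its vehicle minimum is vehicle replicate 5, a high-actin array, and without the 4 such arrays the change was −0.02. The groups overlapped over nearly their whole ranges for both genes.

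The other enzymes were measured from the same fit. IDI1, the isomerase of isopentenyl diphosphate, was at 0.20 ± 0.14 at 1000 pM and ACAT2, which joins acetyl-CoA units, at 0.15 ± 0.13. DHCR7, the reductase of the last step, was at −0.14 ± 0.15 and LSS, the lanosterol synthase, at −0.14 ± 0.13, but without the 4 high-actin arrays at −0.04 and 0.02. FDPS, SC5D, MVK, STARD4, MSMO1, NSDHL, HSD17B7 and EBP lay between −0.08 and 0.14, and without those arrays between −0.13 and 0.16, MVK (0.10) and NSDHL (0.04) having turned sign. None of these 12 genes passed in any of the 7 comparisons with vehicle or against 0.1 and 0.3 pM.

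The regulators of the branch were level or moved without passing. SREBF2 had 5.18, 5.36 and 5.62 at 100 pM and 5.38, 5.53 and 5.59 at 1000 pM, against 5.47, 5.59 and 6.35 in vehicle. All arrays at 100 and 1000 pM lay below the vehicle mean, with changes of −0.36 ± 0.14 (adjusted p = 0.07842) and −0.25 ± 0.14 (0.3329). SREBF2 was also at −0.44 ± 0.14 at 1 pM, where PGR was at 0.60 ± 0.21 and 0 of all genes passed. The vehicle mean is raised by replicate 5, a high-actin array with the highest SREBF2 level of its group, and without the 4 arrays the change at 1000 pM was −0.14. In that fit SREBF2 was still at −0.32 ± 0.10 at 1 pM (adjusted p = 0.9991, limma) and −0.25 ± 0.10 at 10 pM (0.2952). INSIG1, whose transcript is a sensitive readout of SREBP activity, had 9.19, 10.12 and 10.28 at 1000 pM against 9.21, 9.79 and 10.12 in vehicle (0.15 ± 0.25; adjusted p = 0.7892). Its 3 probe sets were at 0.15, 0.26 and 0.26.

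In the fatty acid branch, the enzymes that build palmitate from citrate did not pass. ACLY, which makes cytosolic acetyl-CoA, had 9.69, 9.88 and 10.04 at 1000 pM against 9.64, 9.91 and 10.02 in vehicle (0.03 ± 0.08; adjusted p = 0.8688). Its 2 dimmer probe sets were at 0.33 ± 0.17 and 0.30 ± 0.12, and with the 3 averaged ACLY was at 0.22 ± 0.10 (adjusted p = 0.2328). ACACA, which makes malonyl-CoA, had 8.32, 8.55 and 8.70 against 8.30, 8.58 and 9.00 in vehicle (−0.05 ± 0.10; adjusted p = 0.8208). FASN, the fatty acid synthase, had 5.67, 5.98 and 6.21 at 100 pM and 6.09, 6.29 and 6.79 at 1000 pM, against 5.64, 6.39 and 7.45 in vehicle. FASN was at −0.45 ± 0.20 (adjusted p = 0.1266) at 100 pM and −0.08 ± 0.20 (0.8664) at 1000 pM. Its highest vehicle array, replicate 5, is a high-actin array, and without the 4 such arrays FASN was at −0.25 and 0.03.

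ME1, the cytosolic malic enzyme that supplies NADPH, came nearest to a rise. It had 9.90, 10.04 and 10.17 at 100 pM and 9.82, 10.10 and 10.17 at 1000 pM, against 9.34, 9.88 and 10.04 in vehicle. All 6 arrays at each concentration lay above the vehicle mean, with changes of 0.23 ± 0.08 (adjusted p = 0.06326) and 0.24 ± 0.08 (0.06664). All 4 high-actin arrays had the lowest ME1 of their group, differing from the mean of the others by −0.57 to −0.24. Without them the change at 1000 pM was 0.19 (adjusted p = 0.02199, limma), a pass, where 8.81% of all genes passed. In that fit ME1 also passed at 100 and 1000 pM against 0.1 and 0.3 pM (0.12; adjusted p = 0.0167), where 21.2% of all genes did. The second probe set of ME1 was at 0.25 ± 0.08 at 1000 pM, 0.35 ± 0.08 at 100 pM and 0.27 ± 0.06 at high against low concentrations, where the first was at 0.13 ± 0.06. With both averaged, ME1 passed at 1000 pM (0.25; adjusted p = 0.03113, limma), where 6.78% of all genes did, and at high against low concentrations (0.20; 0.00524), where 12.4% did.

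ELOVL6, which extends palmitate, had 8.78, 9.01 and 9.08 at 1000 pM against 8.99, 9.19 and 9.71 in vehicle, with 6 of 6 arrays below the vehicle mean (−0.25 ± 0.08; adjusted p = 0.05545). Without the 4 high-actin arrays the change was −0.15 with an adjusted p of 0.2161. SCD, which puts the double bond into stearate and palmitate, had 9.68, 10.97 and 11.16 at 1000 pM against 9.59, 10.87 and 11.06 in vehicle (0.09 ± 0.36; adjusted p = 0.9216), and was at 0.30 ± 0.37 without those arrays. SREBF1 had 5.75, 6.27 and 6.60 against 5.38, 6.48 and 7.14 in vehicle (−0.10 ± 0.22; adjusted p = 0.8533), and was at 0.08 without them. The wide ranges of SCD and SREBF1 lay within every group. FADS1 and FADS2, desaturases of polyunsaturated fatty acids, were at 0.23 ± 0.16 and −0.08 ± 0.22, and FADS2 at 0.02 without them. The elongase ELOVL5 was at −0.04 ± 0.04, ACSL1, which activates long fatty acids, at 0.10 ± 0.15, and ACSS2, which activates acetate, at −0.12 ± 0.11 (−0.04 without them).

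Most of the variation in the members lay between arrays of one group. With 8 groups of 6 or 7 arrays this holds for a gene without group differences too, and the share over all genes is not given here. For SCD 99.5% of the sum of squares lay within groups and for INSIG1 98.4%, against 65.7% for TM7SF2 and 71.3% for CYP51A1. Without the 4 high-actin arrays the within-group SD of SCD was 0.66, rank 1 of the 11075 genes; INSIG1 (0.43), SREBF1 (0.40), FADS2 (0.37) and STARD4 (0.32), a carrier of sterol between membranes, ranked 15, 25, 41 and 92. With all arrays SCD ranked 5. ELOVL5 was among the steadiest, at rank 10180.

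SCD fell into 2 separate ranges. In each of the 8 groups 2 arrays lay low, 16 arrays in all at 9.48 to 9.96, the other 33 lay at 10.78 to 11.17, and no array lay between. The low arrays were replicates 1 and 6 in vehicle and at 0.1 pM, 2 and 7 at 0.3 pM, and 5 and 6 in each of the 5 groups from 1 to 1000 pM. They include 3 of the 4 high-actin arrays, and 13 are not among these. Every group, vehicle included, thus held the same number of low arrays.

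**Figure D3:**
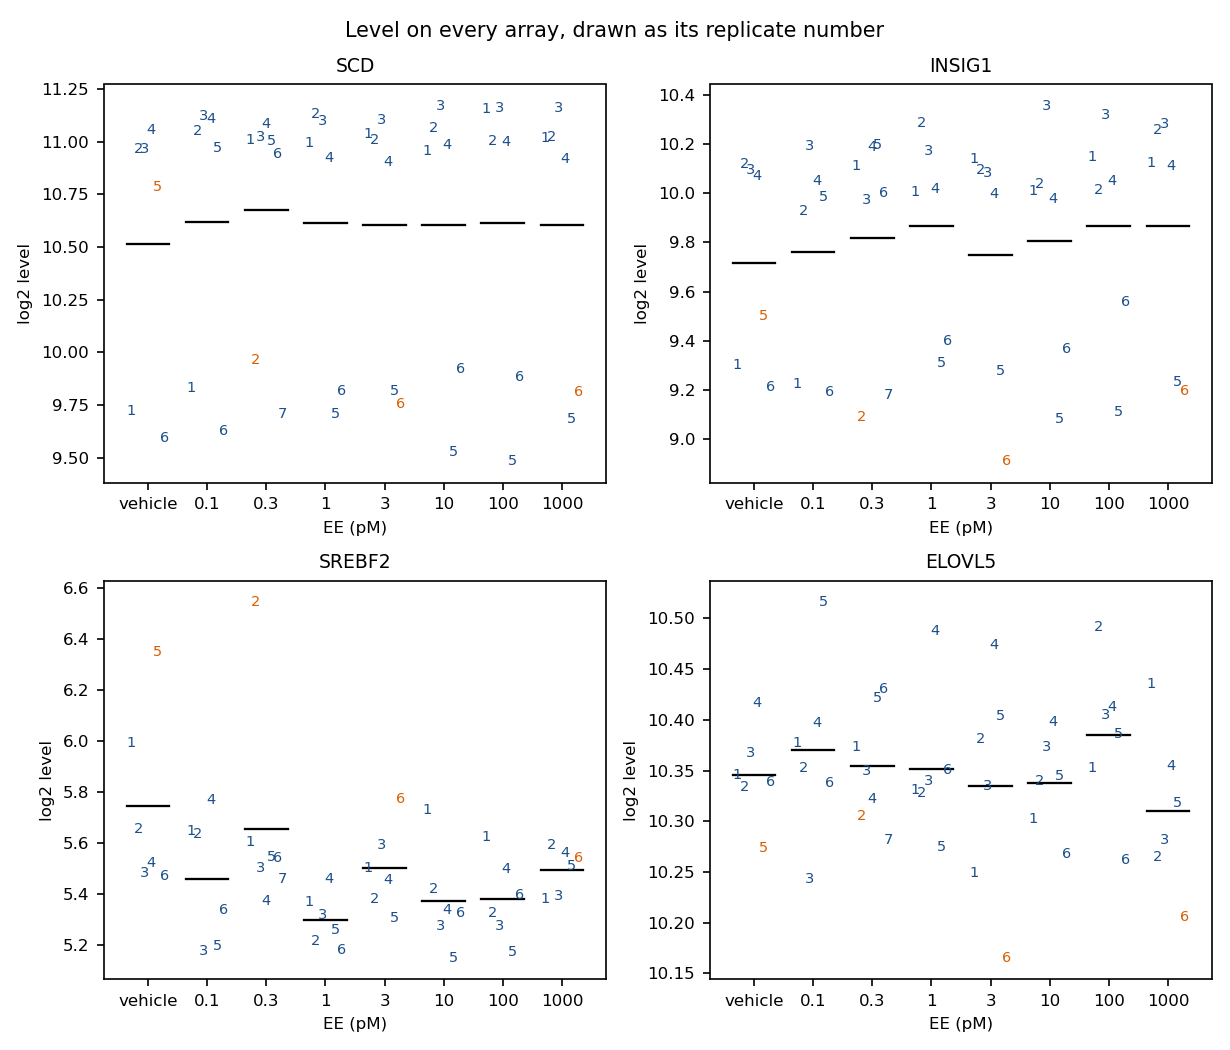
Log2 level of SCD, INSIG1, SREBF2 and ELOVL5 on each array, drawn as the array's replicate number, from vehicle to 1000 pM EE; orange numbers are the 4 high-actin arrays and bars are group means. SCD shows 2 low arrays per group, 9.48 to 9.96 against 10.78 to 11.17, and INSIG1 has the same arrays lowest, while SREBF2 and ELOVL5 do not.

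The same 2 arrays were also the lowest for other members. In 8 of 8 groups they were the 2 lowest for HMGCS1, FDPS (the farnesyl diphosphate synthase), INSIG1, MSMO1 (a methylsterol oxidase) and FADS1, so 5 of the 29 other members (17.2%), against 17 of 11074 genes (0.154%). In at least 7 groups they were lowest for 10 members (34.5%), adding IDI1, SC5D, STARD4, ACAT2 and SREBF1, against 0.713% of genes. In at least 4 groups this held for 18 members, 13 sterol and 5 fatty acid (62.1%), against 6.78% of genes. It held in 0 groups for MVK, CYP51A1, SREBF2 and ME1. The 12 genes outside the list with all 8 groups included NPC2 and MYLIP, which act in cholesterol transport and in the decay of lipoprotein receptors, and LPIN1 and DBI, of lipid synthesis and acyl-CoA binding. These 4 were picked from the 12 after their names had been seen. The rest of the 12 were CBLN2, EDIL3, FGFBP1, LRRC17, PLA2G3, PTCH1, SMOC2 and TCF4. Since SCD defined the arrays and the pattern was seen first, these counts are a description.

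From 1 to 1000 pM, where the low arrays carry the same numbers, replicates 5 and 6 both lay below replicates 1 to 4 in all 5 groups for 11 of the 29 members other than SCD (9 sterol, 2 fatty acid; 37.9%), and for 145 of 11074 genes (1.31%). The median difference over the groups was −1.28 for SCD, −0.87 for INSIG1, −0.71 for STARD4, −0.65 for SREBF1, −0.51 for IDI1 and −0.40 for HMGCS1. For SCD this is larger than its change with EE in any comparison. What the replicate numbers stand for is not given in the sources used here.

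**Figure D4:**
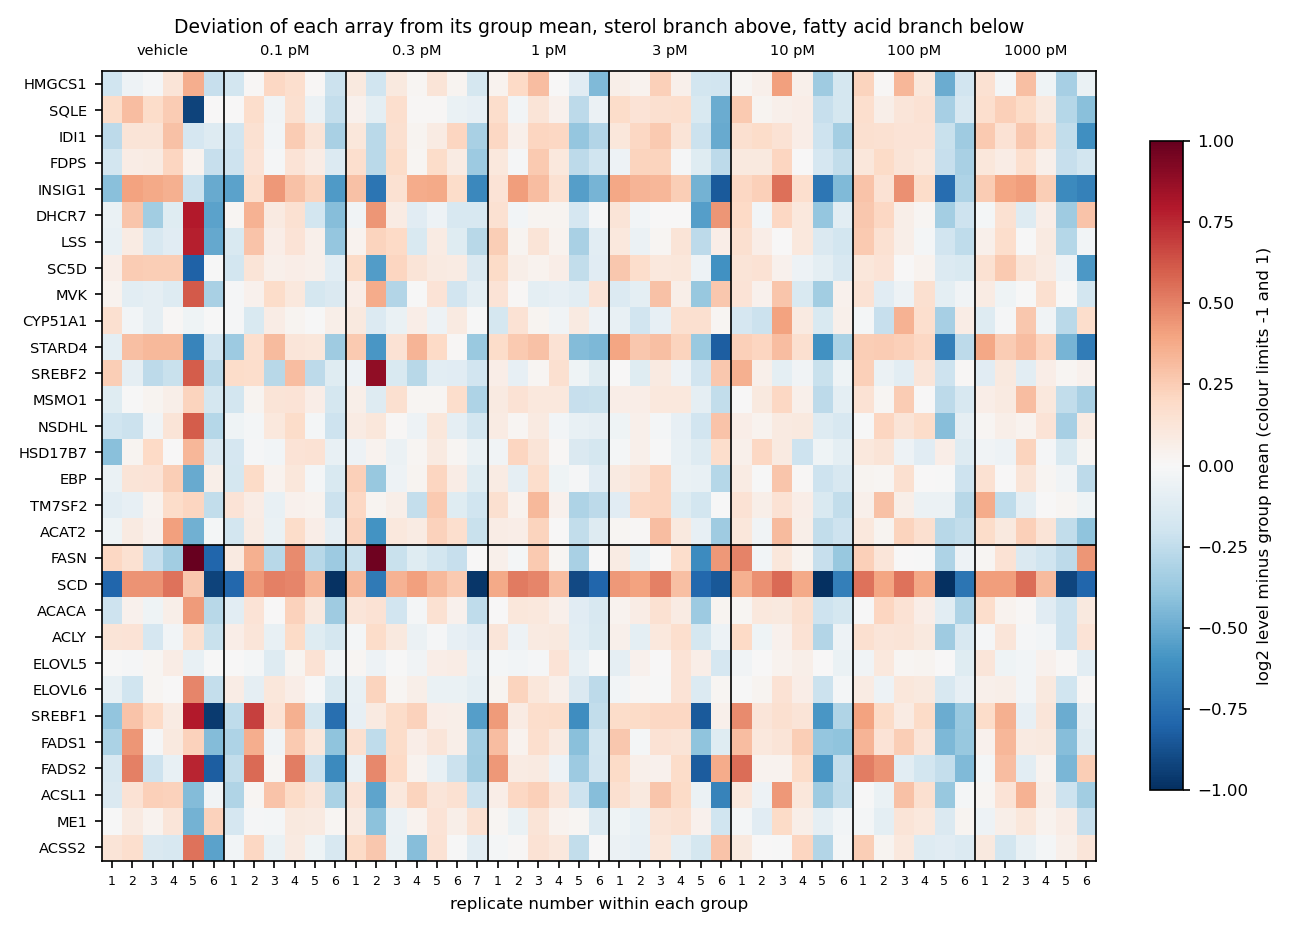
Log2 level of each tested member minus its group mean (colour, limits −1 and 1) on the 49 arrays, by group and replicate number, with the sterol branch above the line and the fatty acid branch below. In the groups from 1 to 1000 pM the columns of replicates 5 and 6 are blue for most members, and vehicle replicate 5 and 0.3 pM replicate 2 have rows of both colours.

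Without the 4 high-actin arrays (45 arrays), deviations of members from the group means were correlated. The median Pearson r was 0.58 within the sterol branch, 0.53 within the fatty acid branch and 0.53 between branches. Over all pairs of tested genes it was 0.02. With all 49 arrays the medians were 0.40, 0.48 and 0.43, beside 0.02. A split by SCD, itself a member, removes variation shared with SCD, so lower r within a range is partly built in. Within the upper range of SCD (32 arrays without the high-actin one) members followed each other only in part. The median Pearson r of deviations from the group means was 0.12 within the sterol branch (153 pairs), 0.02 within the fatty acid branch (66 pairs) and 0.05 between branches, beside 0.02 between members and all other genes. INSIG1 had r of 0.75 with SCD, 0.73 with ACSL1, 0.70 with HMGCS1, 0.62 with CYP51A1 and 0.58 with STARD4, but −0.36 with IDI1 and −0.43 with ELOVL5. In the lower range (13 arrays over 8 groups) the medians were 0.09, 0.38 and 0.25, beside 0.13 with all other genes. There the groups at 0.3, 3 and 1000 pM kept a lone array, and each other group kept a pair. A lone array gives no difference within its group and range, so these r rest on few independent differences. Within the sterol branch they ran from −0.93 to 0.98, and no conclusion is drawn from the lower range. The arrays of a range share groups and normalization, and the values are descriptive.

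The 4 high-actin arrays set another pattern on the members. SQLE, SC5D, STARD4, EBP, ACAT2, ACSL1 and ME1 were lowest of their group in 4 of 4 such arrays, and DHCR7, FASN and ACSS2 were highest in 4 of 4. FASN in these arrays exceeded the mean of the others by 0.52 to 1.22, and SC5D differed from it by −0.97 to −0.65. Between 53.3% and 80% of the members lay outside the range of the other arrays of the group, against 67.1% to 81.6% of all genes, so the shift is not one of lipid genes alone.

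A closer comparison, chosen after the data had been seen, used the 30 arrays from 1 to 1000 pM with the replicate number as a block. For 3, 10, 100 and 1000 pM against 1 pM, same-numbered arrays deviated together in 6 of 6 pairs (lowest correlation over genes 0.206, 0.1012, 0.1674 and 0.161), and the calls were seen at the same time as this check. Among the same groups, 1000 pM did not pair throughout with 10 pM (lowest correlation −0.04) or with 100 pM (−0.03). The block reduced the standard error of all 30 members at 1000 pM, by a median factor of 1.61 and by 7.73 for SCD. Differences of about 0.2 (log2) then passed for some members.

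IDI1 at 100 pM rose by 0.23 against 1 pM (SE 0.05; adjusted p = 0.0006841, limma with the replicate block), where 9.29% of all genes passed. It had 10.00, 10.50 and 10.52 at 100 pM against 9.74, 10.26 and 10.35 at 1 pM, and the 6 pair differences were all positive, 0.15 to 0.40 with a median of 0.18. At 1000 pM IDI1 rose by 0.15 (SE 0.05; adjusted p = 0.0287), higher in 5 of 6 pairs, where 10.5% of all genes passed. Without the 2 high-actin arrays of these groups the IDI1 changes were 0.23 and 0.21 (adjusted p = 5.684e-06 and 7.848e-05).

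FADS1 at 1000 pM rose by 0.29 against 1 pM (SE 0.06; adjusted p = 0.0006672). It had 8.71, 9.20 and 9.47 at 1000 pM against 8.43, 8.91 and 9.15 at 1 pM, and was higher in 6 of 6 pairs, by 0.02 to 0.59. The dimmer probe sets of FADS1 were not read against 1 pM. At 1000 pM against vehicle they were at 0.18 ± 0.15 and 0.15 ± 0.17 (SE), where the first was at 0.23. The 2 other calls at 1000 pM were HMGCS1, which rose by 0.20 (SE 0.06; adjusted p = 0.02735; 4 of 6 pairs), and SC5D, a desaturase of the late sterol route, which fell by 0.21 (SE 0.07; adjusted p = 0.03198; 6 of 6 pairs lower). So 4 of 30 members passed at 1000 pM, against 10.5% of all genes, and 1 at 100 pM, against 9.29%. The member counts lie near these shares.

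IDI1 at 100 pM and FADS1 at 1000 pM passed in each of 36 fits that left out 1 replicate number or 1 array. HMGCS1 passed in 26 of these, IDI1 at 1000 pM in 25 and SC5D in 28. Without 1000 pM replicate 6, a high-actin array, SC5D was at −0.15 (adjusted p = 0.152) and HMGCS1 at 0.16 (0.1114). Without both high-actin arrays of these groups 4 members passed at 1000 pM (11.1% of all genes) and at 100 pM too (13.9%): in the first, ME1 took the place of HMGCS1, and in the second, HMGCS1, MSMO1 and TM7SF2 joined IDI1. In that fit SC5D fell by 0.13 (adjusted p = 0.01266) and HMGCS1 had an adjusted p of 0.0775. Without the block 0 members passed in any of these comparisons (adjusted p = 0.5077 for IDI1 at 100 pM and 0.356 for FADS1), where 4.96% of all genes passed at 100 pM and 5.81% at 1000 pM. SCD and INSIG1 were level with the block: −0.01 ± 0.05 and 0.00 ± 0.07 (SE) at 1000 pM against 1 pM. TM7SF2 at 100 pM was at −0.26 ± 0.09, lower in 6 of 6 pairs, with an adjusted p of 0.06501. CYP51A1 was at 0.05 ± 0.08 at 100 pM (adjusted p = 0.7875, limma with the replicate block) and at 0.06 ± 0.08 at 1000 pM (0.7311). SREBF2 at 1000 pM was at 0.20 ± 0.08 against 1 pM, higher in 6 of 6 pairs, with an adjusted p of 0.1466 in the same fit.

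**Figure D5:**
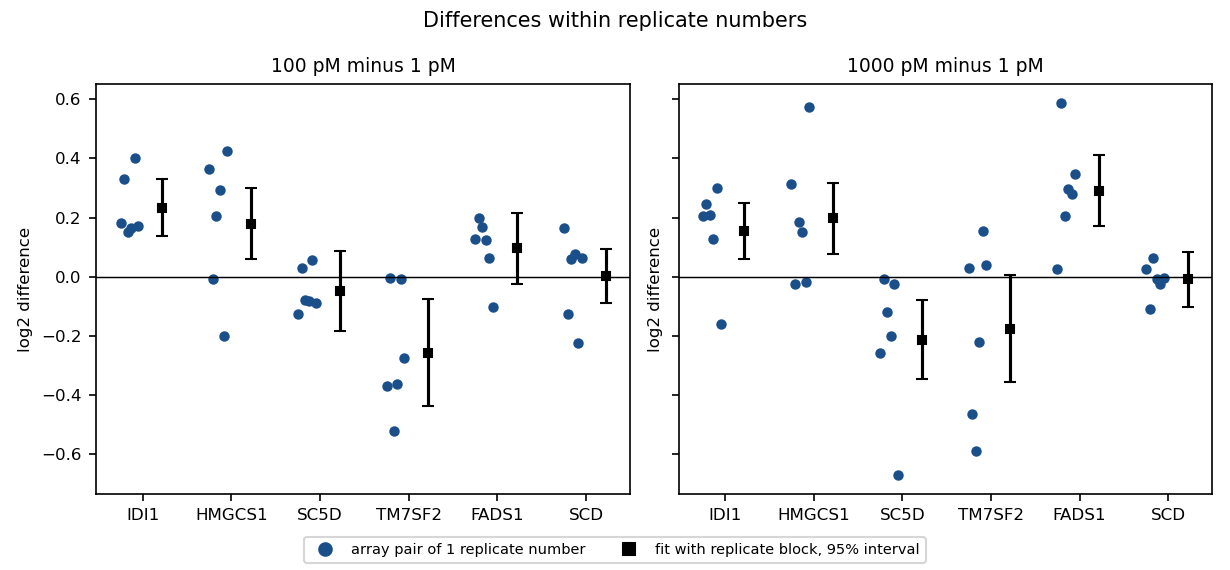
Log2 difference between same-numbered arrays at 100 pM (left) or 1000 pM (right) and 1 pM for 6 members, with the estimate of the fit with a replicate block and its 95% interval beside the 6 pairs. All 6 pairs are above 0 for IDI1 at 100 pM and for FADS1 at 1000 pM, and SCD pairs at 1000 pM lie between −0.11 and 0.06.

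Other genes of the same pathways were read from lists in 3 comparisons, 100 and 1000 pM against vehicle and high against low concentrations. Of all genes 10.1%, 7.21% and 13% passed in these, and 16.4% in at least 1 of them. Of 5 further sterol enzymes and of 7 genes of SREBP processing and sterol sensing, 0 passed in any. The median log2 changes at 1000 pM were −0.01 and −0.05. Of 10 genes of cholesterol uptake and transport 1 fell in the comparison of high with low concentrations, NPC2, the carrier of cholesterol out of lysosomes (−0.19 ± 0.05; adjusted p = 0.009933). Of 3 genes of efflux and LXR control 1 fell there, NR1H3, which encodes the oxysterol receptor LXR-alpha (−0.25 ± 0.09; adjusted p = 0.04795). NPC2 had shared its lowest arrays with SCD in all groups, and NR1H3 lay near the floor at 4.65 ± 0.12 against 4.90 ± 0.26. Without the 4 high-actin arrays 3 more genes passed at high against low concentrations, where 21.2% of all genes did. They were ACAT1, a mitochondrial thiolase, which rose (0.07; adjusted p = 0.03163), and ERLIN1, of the endoplasmic reticulum (−0.07; 0.02288), and APOE, a lipoprotein (−0.28; 0.0327), which fell.

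Among 31 other fatty acid genes 4 passed in at least 1 of the 3 comparisons, near the share of all genes. Of 17 further fatty acid synthesis genes SCD5, a desaturase related to SCD, fell at 100 pM (7.33 ± 0.24 against 7.74 ± 0.21, SD, n = 6 each; −0.41 ± 0.11 SE, adjusted p = 0.01508) and at 1000 pM (−0.35 ± 0.11; adjusted p = 0.04733). At 100 and 1000 against 0.1 and 0.3 pM SCD5 fell by 0.37 (SE 0.08; adjusted p = 0.0006055). Without the 4 high-actin arrays its adjusted p at 1000 pM was 0.07315. PNPLA3, a lipase of the lipid droplet, rose in the high against low comparison (0.30 ± 0.10; adjusted p = 0.04441). Of 14 fatty acid oxidation genes PPARA, a nuclear receptor for fatty acids, fell at 100 pM (−0.29 ± 0.09; adjusted p = 0.02829) and at high against low concentrations (−0.24 ± 0.06; 0.003785). CPT1A, which admits fatty acids to mitochondria, fell at high against low concentrations (−0.31 ± 0.10; adjusted p = 0.02833).

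Of 12 glycerolipid and phospholipid genes 3 passed in at least 1, against 16.4% of all genes. CDS1, which makes CDP-diacylglycerol, fell at 1000 pM (−0.15 ± 0.04; adjusted p = 0.02232) and at high against low concentrations (−0.14 ± 0.03; 0.0005342), with 12 of 12 arrays below the mean of the low ones. DGAT1, which makes triacylglycerol, fell at 100 pM (−0.58 ± 0.16; adjusted p = 0.01676) and at high against low concentrations (−0.33 ± 0.11; 0.04201). LPIN2, a phosphatidate phosphatase, rose at 100 pM (0.32 ± 0.09; adjusted p = 0.01783), at 1000 pM (0.33 ± 0.09; 0.01776) and at high against low concentrations (0.21 ± 0.06; 0.01984). Without the 4 high-actin arrays LPIN2 had adjusted p-values of 0.06307 and 0.0787 in the first 2 of these. At high against low concentrations without these arrays ELOVL7, an elongase (−0.15; adjusted p = 0.00193), SLC25A20, the mitochondrial carnitine carrier (−0.22; 0.01708), and PCYT2, of phosphatidylethanolamine synthesis (−0.24; 0.0195), also fell. ECI2, an isomerase of fatty acid oxidation, rose there (0.10; 0.01473). In that fit ELOVL7, CPT1A and DGAT1 also fell at 1000 pM (adjusted p = 0.01651, 0.04339 and 0.0377), where 8.81% of all genes passed. The 7 genes that passed without these arrays alone were named after their values had been seen.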

How the data were processed

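Biotin-labelled RNA made with a 3′ kit was measured on Affymetrix HT HG-U133 Plus PM arrays (1 for each sample), according to the labels' protocols. The values are the authors' deposited log2 levels of 54715 probe sets. The submitters' processing notes name GCRMA and Partek without versions. GCRMA compresses dim signals, so changes of dim genes may be understated. The number of arrays limits the precision.

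Of the probe sets 40920 had 1 symbol in the platform annotation. A probe set entered if its log2 level exceeded 4 on at least 6 arrays (22779 did), and the one with the highest mean stood for its gene (11075 genes). All 30 tested members were found in RefSeq by Entrez identifier. A model of group means over the 8 groups was used in limma 3.58.1 under R 4.3.3 (with statmod 1.5.0 and data.table version 1.17.8), and the variance prior followed intensity. P-values were adjusted by Benjamini-Hochberg over all genes within each comparison (threshold 0.05).

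Members, lists, comparisons and the rule for genes given in full were chosen with earlier results of these data known. Genes given in full were those that passed against vehicle, at high against low concentrations or in the F test, and SREBF2, INSIG1, HMGCS1, SQLE, SREBF1, FASN, SCD, ACACA, ACLY and ME1. Of each list the passing genes of largest change were named, up to 4. The comparison with 1 pM within replicate numbers was added after seeing the data. Replicate numbers paired the arrays, with every pair's correlation over 0.1, in 0 of 7 comparisons with vehicle and in 8 of 21 others. This pairing rests on the values alone, as no label names a batch.

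Tested on simulated data for 1000 pM against vehicle (11075 genes, 5 runs, 200 changed genes each), the fit recovered 55.6% of 1.25-fold changes, 84.8% of 1.5-fold and 99.2% of 2-fold ones, with 5.98% of calls false. The simulated noise was normal and independent between genes. It held no shifts shared by the genes of an array, such as those of the high-actin arrays, so these rates may not hold for the real arrays. Alternatives changed the filter, the normalization, the variance prior, array weights, the choice of probe set, the arrays in the fit, the replicate block and the handling of high-actin arrays (over 4 median absolute deviations above the median difference). Figures were drawn with Python 3.11.15, pandas 2.3.3 and matplotlib 3.10.9.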

Additional observations from a re-analysis of the deposited data

Results flagged for a closer look

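Single arrays that stood far from the rest of their group were looked for among the 15 members given in full or called (120 gene and group pairs). In 11 pairs (9.17%) the gap to the nearest array was above Dixon's 95% critical value, where chance gives about 1 in 20. These 11 values came from 6 arrays, and 7 of them from 3 of the 4 high-actin arrays.

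In vehicle replicate 5, a high-actin array, SQLE was at 7.92 (nearest array 8.85), SC5D at 8.77 (9.57) and ME1 at 9.34 (9.80), all low. In 0.3 pM replicate 2, also high in actin, SREBF2 was at 6.54 (nearest 5.61) and FASN at 7.34 (6.36), both high, and ME1 was at 9.51 (9.86), low. SC5D was at 8.99 in 3 pM replicate 6 (nearest 9.55), again a high-actin array. The part of RNA quality in these values was not tested.

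The other 4 were low values in arrays of ordinary actin difference. CYP51A1 was at 9.24 in 0.1 pM replicate 2 (nearest 9.38). In 3 pM replicate 5, one of the arrays of low SCD, ACACA was at 8.24 (8.63) and SREBF1 at 5.36 (6.25). SREBF1 was at 5.74 in 0.3 pM replicate 7 (6.21), which also had low SCD.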

How the results depend on the processing

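The small counts of members moved with most settings. At 100 pM against vehicle, 1 member passed, and the count was 2 after quantile normalization, 3 with array quality weights, 2 with probe sets averaged, 0 with only the groups of the contrast, and 2 with the replicate block. At 1000 pM, where 0 passed, it was 1 after quantile normalization, 2 with weights, 1 with probe sets averaged, 3 with the replicate block (TM7SF2, ELOVL6 and ME1), 1 without the 4 high-actin arrays and 3 with the actin difference as a covariate. At high against low concentrations, where 2 passed, it was 4 with weights and 4 with the covariate. In the F test, where 0 passed, it was 2 with weights, 8 with the replicate block and 2 with the covariate. Since numbers pair no comparison with vehicle, the block counts against vehicle say little. Apart from 10 pM, the counts of all genes with the block are not given here. The member counts with the block at 100 and 1000 pM and in the F test, 8 in the last, thus stand without a background. Whether they exceed the share of all genes was not tested. Of all genes, 17 passed at 3 pM and 0 with only the groups of the contrast. At 10 pM 95 passed, and 160 with weights, 33 with only the groups, 39 with the replicate block and 154 without the 4 arrays. With only the groups 290 passed at 100 pM and 308 at 1000 pM, against 1120 and 799. At high against low concentrations 1435 passed, and 2973 with weights, 2349 without the 4 arrays and 2748 with the covariate. In the F test 774 passed, and 1516, 1166 and 1321 with these 3 settings. Against 1 pM without the block, 0 members passed at 100 and at 1000 pM, and 549 and 643 of all genes. With the block and without the high-actin arrays 4 members passed at 100 pM (IDI1, HMGCS1, MSMO1 and TM7SF2).

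Leaving out 1 replicate number or 1 array gave 0 to 6 members at 100 pM, 0 to 3 at 1000 pM and 1 to 4 at high against low concentrations, and 1 to 3 and 1 to 4 against 1 pM at 100 and 1000 pM. Without vehicle replicate 6 the count of members was 6 at 100 pM and 3 at 1000 pM, and that of all genes at 100 pM 1792. Without vehicle replicate 5 that of all genes at 100 pM was 710. Without 0.3 pM replicate 2 the member counts were 3 and 2. Counts of all genes ranged from 8 to 17 at 3 pM, 56 to 116 at 10 pM, 580 to 1792 at 100 pM, 545 to 1157 at 1000 pM, 1001 to 1850 at high against low concentrations and 519 to 782 in the F test.

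No member that passed in the main comparisons turned its direction under these settings. Changes at 1000 pM that did not pass turned sign as follows (LSS, MVK, NSDHL and FADS2 were followed without the 4 arrays alone): ACLY −0.0014 after quantile normalization; SREBF1 0.0489 and FASN 0.111 with weights; ACACA 0.0206 with probe sets averaged; SQLE −0.0151, SREBF1 0.0780, FASN 0.0349 ACACA 0.0139, LSS 0.0186, MVK 0.0963, NSDHL 0.0382 and FADS2 0.0192 without the 4 arrays; FASN 0.0611 with the covariate. Leaving out 1 replicate number gave −0.0411 to 0.171 for SQLE, −0.273 to 0.160 for SREBF1, −0.327 to 0.175 for FASN, −0.153 to 0.327 for SCD, −0.129 to 0.0741 for ACACA and −0.0395 to 0.106 for ACLY. Apart from settings named, the cause of these movements was not tested.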
